A study of Mus musculus with 4 samples.

Results

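Genes for lipid handling at the capillary were followed across the cells of the mouse lung. The 7 genes Gpihbp1, Lpl, Angptl4, Cd36, Fabp4, Fabp5 and Pparg were chosen by name, and all 7 were among the 20076 genes of the deposited count table. The study compared whole lungs of mice with and without deletion of Erg, which encodes an ETS transcription factor of endothelial cells (ECs), by droplet single-cell RNA sequencing. Mice labelled WT had the genotype ERG fl/fl, and mice labelled ERG CKO had the genotype CDH5-CreER(T):ERG fl/fl, with 2 libraries in each group. Both groups thus carried floxed Erg alleles, both were C57/BL6 mice, and both received 5 daily injections of 0.5 mg tamoxifen, with lungs taken 90 days later. The Cre transgene is driven by the Cdh5 promoter, so deletion is directed at ECs, and other cells of the same lungs keep the gene. The study's methods name 2 WT and 2 ERG CKO mice, and each library is taken here as 1 mouse.

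Triglyceride travels in the blood inside lipoproteins that are too large to cross the capillary wall. GPIHBP1, a protein anchored on the EC surface, carries lipoprotein lipase (LPL) to the lumen, where the enzyme releases fatty acids, and ANGPTL4 inhibits that enzyme. CD36 takes up fatty acids at the cell surface, FABP4 and FABP5 bind them inside the cell, and PPARG is a lipid-responsive nuclear receptor that governs many genes of this pathway. In the lung, general capillary cells (gCap) and aerocytes (aCap) form the alveolar capillary bed, whereas alveolar macrophages clear surfactant lipid and alveolar type II (AT2) cells make it.

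The libraries held 1852 to 3097 cells, with medians of 4611 to 4899 unique molecular identifiers (UMIs) per cell. In all, 2508 cells were ECs. Cell classes were rebuilt from the counts and named from marker lists, so they may differ from those of the study, and each is given as "-like". The gCap-like class held 916 cells and the aCap-like class 328. Another capillary cluster of 524 cells carried 8 of 9 gCap markers but was led by Cxcl12, Lpl, Hey1 and Sema3g, and was kept apart without a name. Levels are given as CPM, the UMIs of a gene summed over the cells of a class and scaled to the same total in every sum. Erg did not separate the groups in ECs, at 85.4 and 88.5 CPM in WT and 105 and 82.3 CPM in ERG CKO, so the groups stand here as labelled. The study assessed the deletion by ERG staining of lung sections. Protein was not measured in these libraries, and the Erg counts are not read as a test of the deletion. A further 880 cells of low depth were left unnamed, and 7 cell barcodes occurred in more than 1 library.

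On the reference GRCm38.p6, which is the mm10 build, the genes lie apart from each other except for the fatty acid binding proteins. Fabp5 (chr3:10012585-10016610) and Fabp4 (chr3:10204342-10208616) are neighbours on chromosome 3. Their transcripts share no run longer than 16 bases, so reads can mostly be told apart. Cd36 lies at chr5:17781690-17888959, Pparg at chr6:115360879-115490404, Lpl at chr8:68880555-68906932, Gpihbp1 at chr15:75596630-75598213 and Angptl4 at chr17:33774900-33781575. RefSeq promoter sequences were at hand for 2 of the 7 genes, Cd36 and Pparg. Since ERG is an ETS factor, the ETS-type letters GGAAGT were searched on both strands from 250 bases before to 50 bases after each start. Only Cd36 held them, 176 bases before 1 of its starts, and this stretch of 30 bases is shown because it is the single match among these genes. It is given 5′ to 3′ in the direction of the gene (minus strand, chr5:17836055-17836084), with the match on the opposite strand in capitals.
Cd36 promoter: gttccctaatttACTTCCcccttgctgcta
The same letters occurred in 7809 of 32851 promoters (23.8%), and the match describes the sequence only. Neither binding nor function was measured here.

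To determine which lung cells contain these transcripts, the UMIs of each gene were divided among the classes of each library. Gpihbp1 and Cd36 were endothelial. Gpihbp1 had 73.0% to 84.2% of its UMIs in ECs and Cd36 57.9% to 70.1%, while ECs were 23.9% to 32.3% of all cells. Lpl was mainly a macrophage transcript, with 67.0% to 81.8% of its UMIs in alveolar macrophage-like cells that made up 5.36% to 8.66% of cells, and 10.6% to 14.2% in the 3 capillary classes. Alveolar macrophage-like cells also held most Fabp5 UMIs (54.0% to 75.4%) and most Pparg UMIs (63.5% to 81.0%). Capillary classes held at most 0.484% of Fabp4, 0.768% of Pparg, 1.56% of Angptl4 and 1.89% of Fabp5 UMIs. Of the 7 genes, then, Gpihbp1, Cd36 and Lpl had at least 10.6% of their UMIs in the capillary classes, and the other 4 were measured mainly elsewhere.

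**Figure D1:**
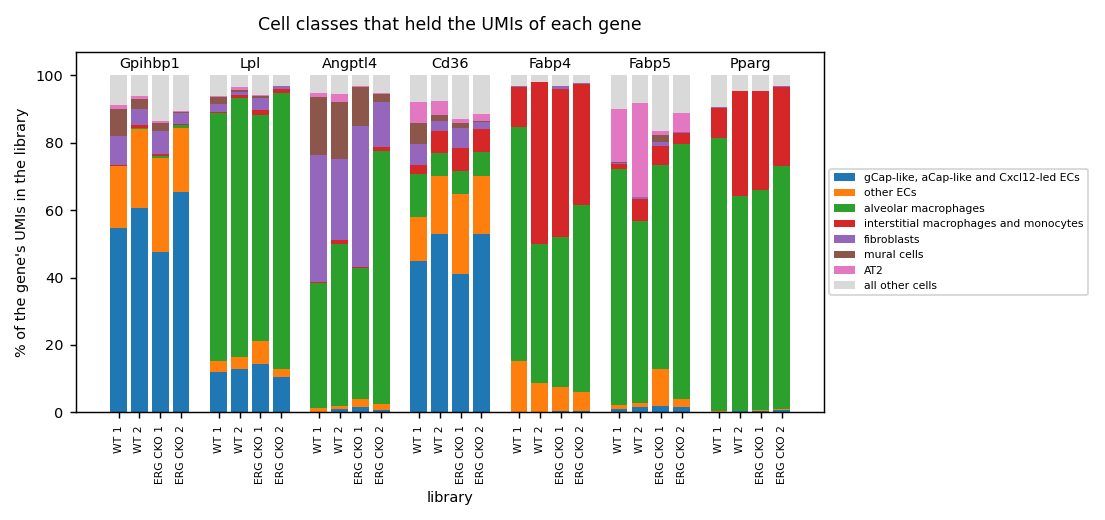
Share of the UMIs of each of the 7 genes (% of that gene's UMIs in the library, vertical axis) by cell class, as stacked bars for the 4 libraries. ECs hold the largest share of Gpihbp1 and Cd36 in each library, and alveolar macrophage-like cells hold the largest share of Lpl, Fabp5 and Pparg.

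**Figure D2:**
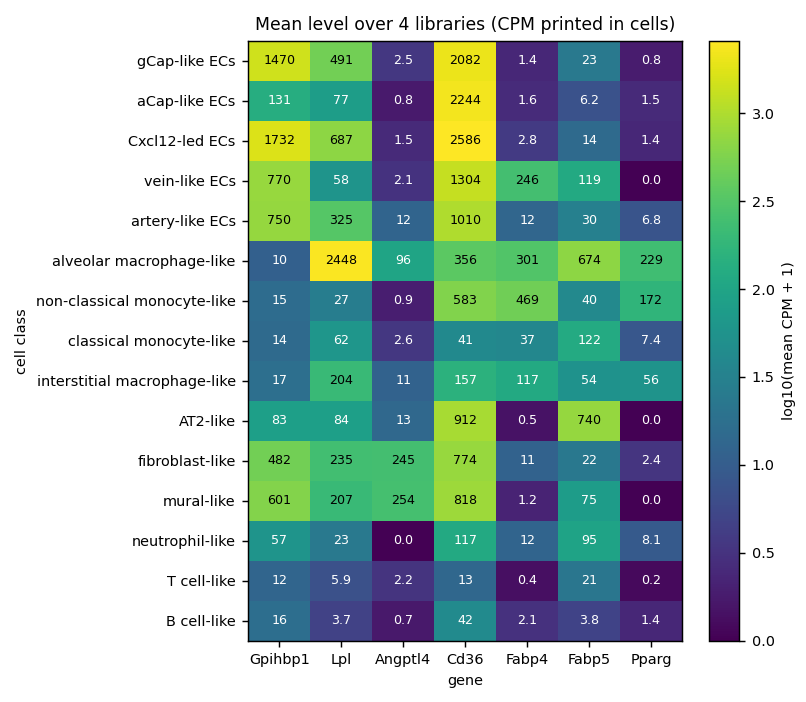
Mean CPM over the 4 libraries (colour, log scale) of the 7 genes in each cell class. Gpihbp1 and Cd36 are high along the EC classes, whereas Lpl, Fabp5 and Pparg peak in alveolar macrophage-like or AT2-like cells.

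Gpihbp1 was lower in ECs labelled ERG CKO. Over all ECs its level was 1451 and 1451 CPM in WT and 883 and 705 CPM in ERG CKO (4607 UMIs at most and 1894 at least per library). The groups did not overlap, as held for 46.8% of all genes tested in ECs. Gpihbp1 fell by 0.91 on the log2 scale (SE 0.15, adjusted p = 0.0260, edgeR's quasi-likelihood test with Benjamini-Hochberg adjustment), and it was the 1 gene called of the 6 of this set tested in ECs, against 3.09% of all genes. Only 2 libraries stood in each group, and without WT replicate 1 or WT replicate 2 the call was lost (adjusted p = 0.207 and 0.190, log2 fold changes −0.91 and −0.91). With the mix of EC clusters held equal in all libraries, the levels were 1362 and 1453 against 946 and 738 CPM.

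The gCap-like class was tested next, since it held the highest Gpihbp1 level of the named classes. Here Gpihbp1 measured 1781 and 1893 CPM in WT and 1315 and 891 CPM in ERG CKO. Again the groups were apart, which held for 42.5% of genes tested in this class and for 2 of the 4 members tested. The log2 fold change of −0.76 (SE 0.18) did not pass the threshold (adjusted p = 0.122, edgeR), and none of the 4 tested members did, with 0.890% of genes called in this class. Same-numbered libraries matched in sex, with Xist at 992 and 1044 CPM in both replicates 1 and at 0 in both replicates 2. With the replicate number as a block the Gpihbp1 difference of −0.79 on the log2 scale (SE 0.14) passed in edgeR, at an adjusted p of 0.00187. That fit called 369 of 8876 genes, against 79 without a block. In the Cxcl12-led cluster, whose separate test was added after the values were seen, the levels were 1982 and 1958 against 1498 and 1490 CPM (log2 fold change −0.41, SE 0.15, adjusted p = 0.362; 0 of 3 members and 0.803% of genes called). Pooling both clusters gave −0.59 (SE 0.13, adjusted p = 0.0542), with 0 of 4 members and 2.05% of genes called. In aCap-like ECs the level was lower throughout, at 191 and 157 CPM in WT and 143 and 35.1 CPM in ERG CKO (log2 fold change −0.93, SE 0.34, adjusted p = 0.0873). None of the 3 members tested in aCap-like ECs was called, although 11.5% of genes were, and 2 of 3 had groups that did not overlap, against 49.7% of genes. The difference between the gCap-like and aCap-like effects was 0.27 (SE 0.29, adjusted p = 0.730, edgeR interaction with the mouse as a block). Without ERG CKO replicate 1 that difference was called (1.24), and without ERG CKO replicate 2 it was −0.21, so it rested on single libraries.

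More ECs labelled ERG CKO than WT had no Gpihbp1 UMI, which is not proof that a cell lacked the transcript. In WT, 97.2% (95% Wilson interval 94.5% to 98.6%) and 98.3% (96.2% to 99.3%) of gCap-like cells had at least 1 Gpihbp1 UMI. In ERG CKO these shares were 77.7% (71.5% to 82.8%) and 54.8% (46.1% to 63.2%). Cells of ERG CKO were the more deeply read, with medians of 5000 and 4820 UMIs against 4008 and 3801 in WT. At an equal depth of 1000 UMIs drawn from every cell (2 shallower cells of WT replicate 2 omitted), the shares were 80.9% and 80.7% against 54.4% and 36.5%. T cell-like cells, which should lack Gpihbp1, had a UMI in 1.20% to 3.12% of cells at medians of 6110 to 6728 UMIs. The shares of gCap-like cells with Gpihbp1 were thus far above that background in each library. With 2 mice a group the smallest 2-sided exact permutation p is 0.333, and Wilson intervals cover counting error only.

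The gCap-like cells that had Gpihbp1 held 7.57 and 7.57 UMIs per cell in WT and 9.31 and 8.72 in the more deeply read ERG CKO. Scaled for depth, the same cells held 1830 and 1927 CPM in WT and 1673 and 1499 CPM in ERG CKO, lower in both ERG CKO libraries. In ERG CKO replicate 1, 29.1% of gCap-like cells held over 10 Gpihbp1 UMIs while 22.3% held 0. In ERG CKO replicate 2 these were 15.9% and 45.2%, compared with 22.3% and 2.84% in WT replicate 1. The Cxcl12-led cluster had a Gpihbp1 UMI in 95.4% and 94.4% of WT cells and in 73.6% and 72.9% of ERG CKO cells (79.8% and 79.6% against 59.9% and 55.3% after thinning, with 3 and 1 ERG CKO cells left out). Its cells with Gpihbp1 held 2046 and 2095 CPM in WT and 1861 and 2015 CPM in ERG CKO. The lower sums thus went with both more cells at 0 and somewhat lower levels in the cells that had any, without a test, since these cells were chosen by the same counts.

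**Figure D3:**
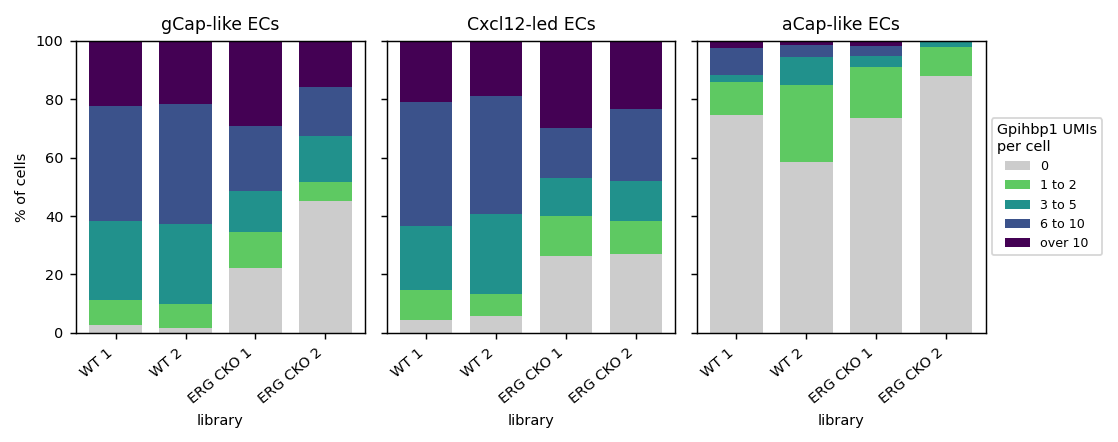
Share of cells (%, vertical axis) by the number of Gpihbp1 UMIs per cell, for each library in the gCap-like, Cxcl12-led and aCap-like classes. The grey share with 0 UMIs is 2.84% and 1.66% in the WT and 22.3% and 45.2% in the ERG CKO gCap-like cells, while cells with over 10 UMIs remain in both groups.

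The ERG CKO cells without a Gpihbp1 UMI also had little Lpl, yet kept Cd36. In gCap-like cells without a Gpihbp1 UMI, Lpl was 74.3 CPM in ERG CKO replicate 1 (46 cells, 18 Lpl UMIs) and 32.8 CPM in replicate 2 (57 cells, 9 Lpl UMIs). In their neighbours with Gpihbp1 it was 756 and 617 CPM. Cd36 was 2175 and 2172 CPM without and 1769 and 2151 CPM with Gpihbp1. Summed gCap markers were lower in the cells without Gpihbp1, at 3470 and 3161 CPM against 5454 and 6338 CPM, as were vein markers at 363 and 365 against 1027 and 744 CPM, while aCap markers were higher, at 1221 and 1613 against 651 and 909 CPM. The part of these in the Lpl and Cd36 values was not tested. Summed EC markers were 13427 and 13752 against 15318 and 14811 CPM. Erg itself was 90.8 and 76.6 CPM without and 101 and 94.6 CPM with Gpihbp1. WT offered only 8 and 5 such cells, so these levels have no matched control and are a description of cells sorted by the same counts.

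Alignment of the libraries before clustering spread these cells over several classes. Without alignment, 570 ECs formed 1 cluster led by Tgfbi, of which 564 came from ERG CKO (317 and 247 cells) and 6 from WT (1 and 5 cells). Genes called between the groups in ECs, Gpihbp1 among them, had been left out of that clustering. The Tgfbi-led cluster held Gpihbp1 at 182 and 124 CPM, Lpl at 106 and 65.9 CPM and Cd36 at 2054 and 2208 CPM in the ERG CKO libraries. It took up 38 of the 46 and 51 of the 57 gCap-like ERG CKO cells that had no Gpihbp1 UMI, and 79 of 83 and 82 of 88 such aCap-like cells. It showed 8 of 10 aCap markers by the naming rule, with aCap marker sums of 2940 and 4187 CPM against 16940 and 16797 CPM in the clearest WT aCap cluster, and gCap marker sums of 2979 and 2760 CPM. Its identity is not settled by these markers. The study described a new EC cluster in ERG CKO lungs, named intermediate ECs, and whether it matches the Tgfbi-led cluster was not tested.

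The remaining gCap-like cells of that clustering showed no lower Gpihbp1 in ERG CKO beyond the spread. Their Gpihbp1 was 1749 and 1919 CPM in WT and 1803 and 1675 CPM in ERG CKO, with a log2 fold change of −0.07 by edgeR (SE 0.13, adjusted p = 0.956). Over all ECs as drawn in that clustering, the log2 fold change was −0.92 (SE 0.16, adjusted p = 0.0274). The gCap-like values above are therefore those of 1 way of drawing the class, and the value over all ECs is not. In an expression sum, fewer cells with the transcript and less transcript per cell cannot be told apart, and which applies to a class turned on its borders.

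Gpihbp1 was also present in the other ECs and in classes outside them. Vein-like ECs held 888 and 686 CPM in WT and 628 and 877 CPM in ERG CKO, with no difference beyond the spread (log2 fold change −0.16, SE 0.26, adjusted p = 0.948). Artery-like ECs, with 16 to 22 cells a library, ranged from 215 to 1050 CPM. An unnamed EC cluster of 327 cells had 1665 and 2040 against 820 and 562 CPM, and another of 150 cells had 1112 and 1260 against 405 and 351 CPM. Fibroblast-like sums held 522 and 672 CPM in WT and 374 and 360 CPM in ERG CKO (log2 fold change −0.69, SE 0.21, adjusted p = 0.246). EC markers summed to 4253 to 5142 CPM in that class, where all 8 were detected, and to 14382 to 15883 CPM in gCap-like cells. The part of these EC transcripts in the fibroblast value was not tested. T cell-like sums held 1.83 to 20.9 CPM.

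Lpl, the lipase that GPIHBP1 binds, was highest in alveolar macrophage-like cells and overlapped between the groups there. The level was 1938 and 2678 CPM in WT and 2469 and 2706 CPM in ERG CKO, so the groups overlapped (log2 fold change 0.18, SE 0.15, adjusted p = 0.994, edgeR). In gCap-like ECs Lpl was 556 and 419 against 610 and 380 CPM, with a log2 fold change of 0.00 (SE 0.24), and the sign turned with most alternatives. In the Cxcl12-led cluster Lpl was 712 and 584 against 734 and 720 CPM. It was among that cluster's leading genes, but the clustering had left it out. The groups thus overlapped in gCap-like ECs and were apart, without passing the test, in the Cxcl12-led cluster (log2 fold change 0.16, SE 0.18, adjusted p = 0.921). Within ERG CKO, though, gCap-like cells with Gpihbp1 held 756 and 617 CPM, compared with 562 and 424 CPM in such cells of WT, and in the clustering without alignment gCap-like Lpl was 563 and 419 against 855 and 590 CPM (log2 fold change 0.58, SE 0.21, adjusted p = 0.589). In aCap-like ECs it was 86.2 and 46.8 against 126 and 50.1 CPM (log2 fold change 0.48, SE 0.36, adjusted p = 0.517), and without ERG CKO replicate 1 the sign turned (−0.36).

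In vein-like ECs, a class tested after the values were seen, Lpl was higher in ERG CKO. It measured 20.9 and 18.4 CPM in WT and 111 and 81.8 CPM in ERG CKO, from 5, 6, 65 and 11 UMIs in 2, 5, 17 and 4 cells. Lpl rose by 2.31 on the log2 scale (SE 0.42, adjusted p = 0.0425 in edgeR), 1 of 5 members called against 0.184% of genes in that class. It passed the low-count filter only through ERG CKO, the group where it was high, so the call is a description only. Groups did not overlap for 2 of the 5 members and for 38.1% of genes. The call rests on few cells, and it was lost without WT replicate 2 or ERG CKO replicate 1, in DESeq2, with library size scaling alone, at no more than 10% mitochondrial UMIs, and without alignment, and after thinning Lpl was too low to be tested. Fibroblast-like cells held Lpl at 200 and 157 CPM in WT and at 311 and 274 CPM in ERG CKO (log2 fold change 0.72, SE 0.23, adjusted p = 0.285). T cell-like sums held 2.24 to 8.47 CPM.

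Angptl4, the inhibitor of LPL, was a stromal and macrophage transcript. Mural-like cells held 305 and 265 CPM in WT and 276 and 170 CPM in ERG CKO, and fibroblast-like cells 374 and 228 against 210 and 167 CPM. The library ranges of both classes overlapped, and mural-like cells were not tested between the groups. In fibroblast-like cells the groups were apart, with a log2 fold change of −0.65 that did not pass the test (SE 0.26, adjusted p = 0.476), and in alveolar macrophage-like cells, at 106 and 103 against 82.1 and 94.0 CPM, it was −0.24 (SE 0.14, adjusted p = 0.994). gCap-like ECs held only 1, 4, 5 and 1 Angptl4 UMIs, or 0.859 to 4.41 CPM, which is near the 0.914 to 3.73 CPM of T cell-like cells. Capillary Angptl4 was thus not distinguishable from background at this depth.

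Cd36, the fatty acid translocase, was high in each capillary class, with no difference between the groups that passed the test. In gCap-like ECs it was 2128 and 2183 CPM in WT and 1856 and 2159 CPM in ERG CKO (log2 fold change −0.13, SE 0.12, adjusted p = 0.733, edgeR). aCap-like ECs held as much, at 2571 and 2308 against 1884 and 2212 CPM (log2 fold change −0.27, SE 0.16, adjusted p = 0.359), and the groups were apart there without passing the test. The Cxcl12-led cluster held 2532 and 2580 against 2541 and 2691 CPM. Vein-like ECs were lower, at 998 to 1457 CPM. Nearly every capillary cell had a Cd36 UMI, 98.5% to 100% of gCap-like cells in the 4 libraries and 80.6% to 88.0% after thinning, against 2.15% to 6.82% of T cell-like cells. Cd36 therefore measured close to WT in the same classes in which cells without a Gpihbp1 UMI were found, although the difference between both genes was not itself tested.

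Outside ECs, Cd36 reached 1115 and 1049 CPM in AT2-like cells of WT and 705 and 780 CPM in ERG CKO (log2 fold change −0.61, SE 0.19, adjusted p = 0.747). There were 21, 14, 9 and 8 AT2-like cells, and none of 4 members nor any of 3820 genes (0%) was called by edgeR, with 236 genes at an unadjusted p under 0.05 and 1 gene by DESeq2. Non-classical monocyte-like cells held 584 and 543 against 605 and 598 CPM. Alveolar macrophage-like cells held 398 and 366 against 359 and 301 CPM (log2 fold change −0.20, SE 0.13), and fibroblast-like cells 685 and 738 against 744 and 927 CPM. None of these differences passed the test.

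**Figure D4:**
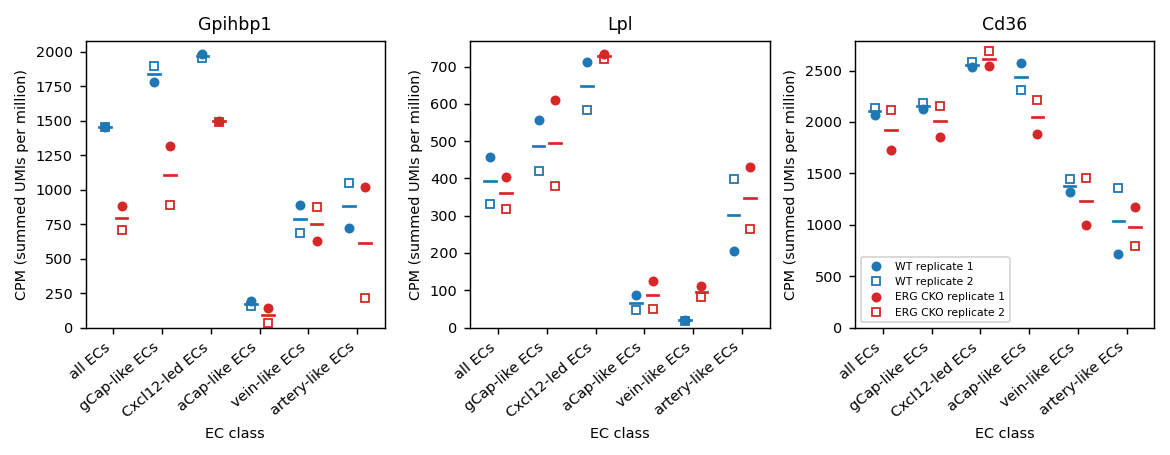
CPM of Gpihbp1, Lpl and Cd36 (vertical axis) in each EC class, 1 point per library. Gpihbp1 points of ERG CKO lie below WT in gCap-like cells (1315 and 891 against 1781 and 1893 CPM), whereas the Lpl and Cd36 points of the groups overlap in that class.

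Fabp4, a fatty acid carrier often taken as a capillary gene in other organs, was all but absent from lung capillary classes. gCap-like cells held 2, 0, 1 and 2 Fabp4 UMIs and aCap-like cells 1, 0, 0 and 2. Over all ECs it was 72.1 and 26.8 CPM in WT and 36.0 and 23.1 CPM in ERG CKO, and 1 cell of WT replicate 1 in the unnamed EC cluster of 327 cells held 111 of that library's UMIs. Of the named EC classes vein-like ECs held the most, at 338 and 254 against 197 and 193 CPM (log2 fold change −0.65, SE 0.26, adjusted p = 0.510), and there 5, 8, 12 and 5 cells carried 81, 83, 116 and 26 UMIs. The unnamed EC cluster of 150 cells held 0 and 1 Fabp4 UMIs in its WT libraries, compared with 30 and 24 (158 and 187 CPM) in those of ERG CKO, and the 24 lay in 1 cell. Endothelial Fabp4 thus lay in few cells, some with many transcripts each.

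Macrophage and monocyte classes held most of the remaining Fabp4. Non-classical monocyte-like cells had 339 and 411 CPM in WT and 689 and 436 CPM in ERG CKO (log2 fold change 0.53, SE 0.20, adjusted p = 0.937). None of 6 members and 0% of 7122 genes was called in them by edgeR, with 367 genes at an unadjusted p under 0.05 and 2 genes by DESeq2. Alveolar macrophage-like cells had 289 and 225 against 401 and 291 CPM (log2 fold change 0.43, SE 0.17, adjusted p = 0.967). Higher values in ERG CKO therefore did not pass the test in either class. In the fit with the replicate number as a block the alveolar macrophage value did, and 108 of 9271 genes were called. Interstitial macrophages and monocytes as 1 class showed 0 of 6 members called, against 0.0243% of genes.

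Fabp4 was called in fibroblast-like cells from very few counts. The libraries held 1 and 0 UMIs in WT and 17 and 5 UMIs in ERG CKO, in 1, 0, 10 and 2 cells. Summed over the group, the ratio of ERG CKO to WT was 23.3 (95% exact counting interval 3.76 to 961). It was called by edgeR at an adjusted p of 0.0403 (log2 fold change 4.29, SE 0.95), 1 of 6 members against 0.894% of genes, and the groups were apart for 6 of 6 members against 37.5% of genes. Fabp4 passed the low-count filter only through ERG CKO, the group where it was high, so the call is a description only. DESeq2 did not call it, nor did edgeR when any of the 4 libraries was left out. Interstitial macrophage markers summed in the same class to 2409 and 2551 CPM in WT, with 3 and 5 of 8 markers at 0 (C1qa, C1qb and Folr2 in both), and to 3838 and 9222 CPM in ERG CKO, with only Folr2 at 0. Their part in the Fabp4 counts was not tested.

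Fabp5, the epidermal-type carrier, was shared by AT2-like cells and alveolar macrophage-like cells. AT2-like cells held 872 and 1292 CPM in WT and 191 and 606 CPM in ERG CKO, lower in both ERG CKO libraries, but the log2 fold change of −1.49 (SE 0.47) did not pass (adjusted p = 0.747). Alveolar macrophage-like cells held 657 and 511 against 725 and 801 CPM (log2 fold change 0.40, SE 0.14, adjusted p = 0.920). In this class 6 of 7 members had groups that did not overlap, against 34.1% of genes, and none was called, nor was any of 9271 genes (0%) by edgeR, with 440 at an unadjusted p under 0.05 and 2 genes by DESeq2. In gCap-like ECs Fabp5 was 17.2 and 21.1 against 29.1 and 25.2 CPM, within the 17.1 to 29.4 CPM of T cell-like cells. B cell-like cells held only 2 and 2 Fabp5 UMIs in WT and 7 and 5 in ERG CKO. The T cell-like range is therefore not read as background for Fabp5. Over all ECs it was 24.8 and 14.5 against 80.0 and 31.6 CPM (log2 fold change 1.53, SE 0.44, adjusted p = 0.129), and in vein-like ECs 108 and 24.5 against 260 and 81.8 CPM, where 1 cell of ERG CKO replicate 1 held 69 UMIs. The Tgfbi-led cluster held 72.5 and 34.0 CPM in ERG CKO. With the replicate number as a block, Fabp5 was called in AT2-like cells, alveolar macrophage-like cells and all ECs. Those fits called 27 of 3820, 108 of 9271 and 1013 of 10721 genes. Over all ECs it was also called by DESeq2 (321 of 12125 genes), without a filter (1149 of 17031) and after thinning (174 of 7541). Without a filter it was called in AT2-like cells (57 of 13504), and at resolution 0.4 in gCap-like ECs (440 of 9497).

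Pparg marked alveolar macrophage-like cells and non-classical monocyte-like cells and was close to 0 in capillaries. Alveolar macrophage-like cells held 220 and 221 CPM in WT and 240 and 238 CPM in ERG CKO (log2 fold change 0.13, SE 0.12, adjusted p = 0.994). Non-classical monocyte-like cells followed at 155 and 169 against 189 and 173 CPM (log2 fold change 0.10, SE 0.15, adjusted p = 0.997). gCap-like ECs held 0, 1, 1 and 1 Pparg UMIs, and AT2-like, vein-like and mural-like cells held 0. Pparg could therefore not be tested in ECs.

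**Figure D5:**
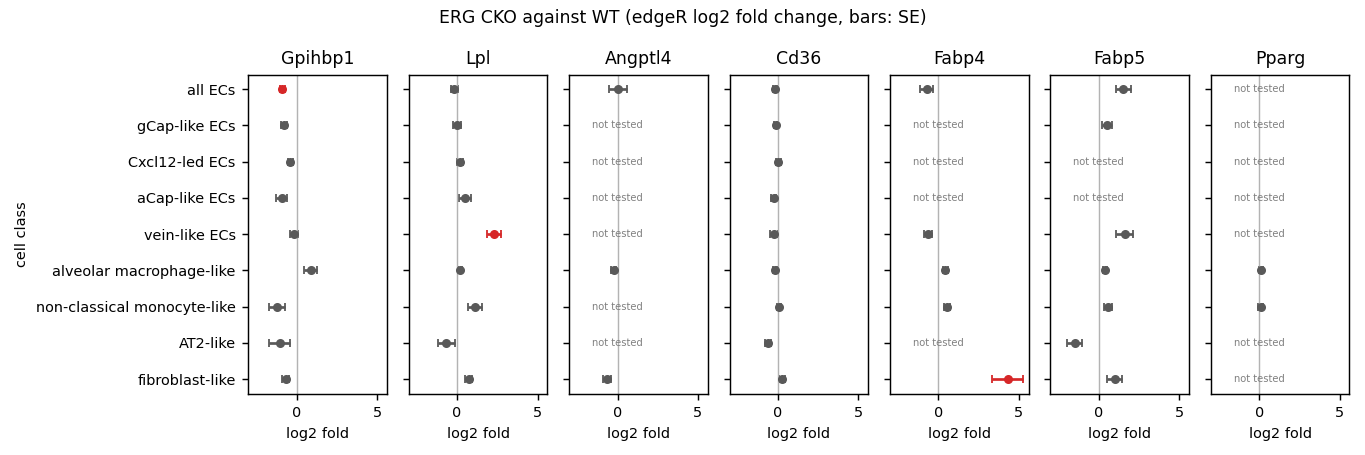
Log2 fold change of ERG CKO over WT (horizontal axis, point ± SE, edgeR) of each gene in each class where it was tested, with red for an adjusted p of at most 0.05. The red points are Gpihbp1 over all ECs (−0.91), Lpl in vein-like ECs (2.31) and Fabp4 in fibroblast-like cells (4.29). These Lpl and Fabp4 points passed the low-count filter only through ERG CKO, where both were high.

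The effect on Gpihbp1 was also set against alveolar macrophage-like cells, which should not lose Erg. The difference of log2 fold changes (gCap-like minus alveolar macrophage-like) was −1.65 (SE 0.38, adjusted p = 0.0908, edgeR interaction), from macrophage levels of only 4.55 to 12.7 CPM. In that model 0.305% of genes were called and none of the members, and in the gCap-like minus aCap-like model 5.52% of genes were called and again none of the members.

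Genes of the wider pathway were examined from lists of lipolysis, fatty acid uptake, lipoprotein receptors, lipid droplets, lipid synthesis, fatty acid oxidation and PPAR factors, which added 131 genes of the table to the 7. In gCap-like ECs, 2 of the 77 tested were called, both higher (2.6%, against 0.890% of all genes). Scd1, the desaturase that makes monounsaturated fatty acids, rose from 6.02 and 5.06 to 53.0 and 20.7 CPM (log2 fold change 2.78, SE 0.52, adjusted p = 0.0489, edgeR). It passed the low-count filter only through ERG CKO, where it was high, and its call was lost without ERG CKO replicate 1. Cebpb, an adipogenic transcription factor, rose from 90.2 and 96.1 to 197 and 213 CPM (log2 fold change 1.10, SE 0.16, adjusted p = 0.0208). Neither was called without alignment (0.61 for Cebpb), and after thinning Cebpb was not called (1.01) and Scd1 was too low to be tested. The median log2 fold change of the 77 genes was −0.02, compared with −0.00 over all genes tested.

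In aCap-like ECs, 15 of 67 were called (22.4%), 6 higher and 9 lower, where 5.42% of all genes were called higher and 6.04% lower. DESeq2 called 6 list genes in all, with 345 of 8170 genes. After thinning 5 list genes were called, with 200 of 1762 genes. The scavenger receptor Stab1 fell from 237 and 165 to 22.6 and 0 CPM (log2 fold change −4.02), the cholesterol exporter Abcg1 from 86.2 and 93.6 to 9.89 and 16.7 CPM (−2.79), and the monoacylglycerol lipase Mgll from 813 and 618 to 127 and 229 CPM (−2.03). The caveolar gene Cav2 fell by 1.16 on the log2 scale and the scavenger receptor Cxcl16 by 1.22. Scd1 (3.70), Cebpb (2.26), Apoe (1.65), Scd2 (1.36) and Srebf1 (1.27) rose. The aCap-like class differed in makeup between the groups, with aCap marker sums of 16940 and 16744 CPM in WT and 5930 and 7882 CPM in ERG CKO, and its part in these values was not tested.

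Over all ECs, 5 of 94 list genes were called (5.32%, against 3.09% of all genes). That count moved with the library left out, as did the count over all genes. Beside Gpihbp1, the lipases Mgll (−1.06) and Lipe (−0.73) fell and the desaturases Scd1 (2.31) and Scd2 (0.93) rose. Fibroblast-like cells had 4 of 91 called (4.4%, against 0.894% of all genes), with Scd1 (2.01) and Apoe (1.21) higher and G0s2, an inhibitor of intracellular lipolysis, lower (−1.38), beside Fabp4. That count was 1 in DESeq2, with the replicate block and at no more than 10% mitochondrial UMIs. Those fits called 27 of 8585, 41 of 7940 and 48 of 7844 genes. The count also moved when 1 library was left out. No list gene passed in the 100 tested in alveolar macrophage-like cells, the 65 in AT2-like cells or the 68 in the Cxcl12-led cluster. In vein-like ECs Lpl was the 1 of 57.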

How the data were processed

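Dissociated lung cells were captured with a droplet platform. Per the submitters' processing notes the authors used Cell Ranger 3.1.0 and mm10, and the deposited table holds UMI counts per gene and cell, not normalized. The smallest cell had 500 UMIs and 300 genes. The study kept fewer cells after a filter with limits not given in the sources used here, and all deposited cells were used.

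The 7 genes and all lists were chosen with earlier results of these data known. Cells were clustered in Seurat 5.3.0 (2000 variable genes, canonical correlation alignment of libraries, 30 dimensions, resolution 0.8), and ECs again (20 dimensions, resolution 0.6) without the 331 genes called between groups in ECs. The 7 genes and every gene of the lipid lists were left out of the variable genes and of the cluster names. Classes were named where at least 3 markers were detected in 10% of cells and raised, unless the leading genes went against the name. The limit of 40% detection for leading genes of EC clusters was chosen after seeing the data. Of all cells, 60 (0.641%) were called doublets and kept. Counts were summed per class and library (at least 10 cells) and tested with edgeR 4.0.16 in R 4.3.3 (TMM, filterByExpr, quasi-likelihood F test, 2 libraries against 2, no covariate), at an adjusted p of 0.05 over all genes. The SE is the absolute log2 fold change over the root of F. Differences between classes used an interaction with the mouse as a block. Alternatives were DESeq2 1.42.0, library size scaling, no filter, a replicate block, leaving out each library, doublets or cells with over 10% mitochondrial UMIs, thinning to 1000 UMIs, no alignment and resolution 0.4. Named genes were the 7, at most 10 called list genes per class by size of change, and the 3 genes most alike in pattern.

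The test was tried on simulated counts. All genes were drawn with a common dispersion and no replicate effect, and only well-counted genes were changed. The rates therefore apply to that setting and need not hold for the real counts. For gCap-like sums (8834 genes) it recovered 51% of 100 genes with a log2 fold of 1 and 100% of 100 with 2. For alveolar macrophage-like sums (9263 genes) it recovered 74% and 100%.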

Additional observations from a re-analysis of the deposited data

Results flagged for a closer look

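The effects on several list genes differed between gCap-like and aCap-like ECs in edgeR's test of the difference (class by genotype, mouse as a block), given as the gCap-like minus the aCap-like log2 fold change. The difference was 3.28 for Stab1, 2.65 for Abcg1, 1.62 for Cxcl16 and 1.51 for Mgll. It was 0.89 for Hilpda, 0.89 for Elovl5, 0.88 for Cav2, 0.78 for Cav1 and −1.56 for Srebf2. Between gCap-like ECs and alveolar macrophage-like cells, Scd1 differed by 3.51. None of the 7 lipid uptake genes differed in either test, and the groups of 2 libraries were too small for a test of outlying samples.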

How the results depend on the processing

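Of 674 refits of the fold changes of the 7 genes, 583 kept direction and side of the threshold, 13 lost and 48 gained a call, and 30 changed sign, none of them a called value. No lipid list gene changed sign in 238 refits, and 49 lost the call. For the 10 reversed differences between classes, each came from leaving out 1 library.

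With the replicate block, the members called were 1 in gCap-like, 1 in aCap-like and 3 in all ECs, 2 in alveolar macrophage-like cells, 2 in interstitial macrophages and monocytes, 1 in AT2-like cells, 0 in fibroblast-like cells and 1 in the pooled gCap-like and Cxcl12-led ECs, and the list genes called were 5 in gCap-like ECs, 16 in all ECs and 1 in fibroblast-like cells. Over all genes tested, the block called 369 of 8876 in gCap-like, 874 of 7071 in aCap-like and 1013 of 10721 in all ECs. It called 108 of 9271 in alveolar macrophage-like cells, 93 of 8223 in interstitial macrophages and monocytes and 27 of 3820 in AT2-like cells. In fibroblast-like cells it called 41 of 7940 genes, and in the pooled capillary ECs 745 of 9534. The block also gave Lpl in gCap-like ECs −0.025 and Angptl4 in all ECs −0.067. Deviations of same-numbered libraries correlated at 0.20 in gCap-like and 0.31 in all ECs but at −0.00 in fibroblast-like cells, with 2 pairs only. Replicates 1 had Xist (992 and 1044 CPM over all cells) and no Ddx3y, and replicates 2 had Ddx3y (113 and 121 CPM) and no Xist, so the numbers match in sex, although the labels do not tie them to a litter, batch or day.

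DESeq2 called 2 members in all ECs, 0 in fibroblast-like and 0 in vein-like cells, and 6 list genes in aCap-like ECs and 1 in fibroblast-like cells, and gave Angptl4 in all ECs −0.036. Library size alone gave 1 member in the pooled capillary ECs and 0 in vein-like ECs. With no filter on low counts, members called were 1 in gCap-like, 1 in aCap-like, 3 in all ECs, 3 in interstitial macrophages and monocytes, 1 in AT2-like cells, 1 in the pooled capillary ECs and 2 in vein-like ECs. In the same order, those fits called 260 of 15095, 940 of 13543, 1149 of 17031, 117 of 14535, 57 of 13504, 583 of 15703 and 80 of 13317 genes. List genes called were 5 in gCap-like and 16 in all ECs, and Lpl in gCap-like ECs was −0.0075. Without doublets that Lpl value was −0.035. At most 10% mitochondrial UMIs gave 0 members in fibroblast-like and 0 in vein-like cells, 1 list gene in fibroblast-like cells, and Angptl4 in all ECs −0.0054. Thinning to 1000 UMIs gave 2 members in all ECs, 0 in fibroblast-like and 0 in vein-like cells, list genes 0 in gCap-like, 5 in aCap-like, 3 in all ECs and 2 in fibroblast-like cells, Lpl in gCap-like ECs −9.9e-05, Fabp4 in all ECs 0.48 and Gpihbp1 in vein-like ECs 0.10. Without alignment, 2 members (Fabp4 and Fabp5) were called in aCap-like ECs, which then held the Tgfbi-led cluster, 0 in vein-like ECs, 0 list genes in gCap-like ECs, and Cd36 in the Cxcl12-led cluster was −0.15. Resolution 0.4 called 2 members in gCap-like and 2 in pooled capillary ECs and 7 list genes in gCap-like ECs, with Lpl −0.32 in gCap-like and −0.12 in pooled capillary ECs and Cd36 −0.031 in the Cxcl12-led cluster. Over all genes, DESeq2 called 321 of 12125 in all ECs, 345 of 8170 in aCap-like ECs and 27 of 8585 in fibroblast-like cells. Library size alone called 216 of 9534 in pooled capillary ECs. Thinning called 174 of 7541 in all ECs, 200 of 1762 in aCap-like ECs and 21 of 1788 in fibroblast-like cells. No alignment called 1367 of 8727 in aCap-like ECs. Resolution 0.4 called 440 of 9497 in gCap-like and 361 of 10060 in pooled capillary ECs. The cause of the changes between settings was not tested.

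Leaving out 1 library at a time gave 0 to 1 members called in gCap-like, aCap-like and pooled capillary ECs and in both tests between classes, 0 to 2 in all ECs, vein-like ECs, AT2-like cells, non-classical monocyte-like cells and interstitial macrophages and monocytes, and 0 in fibroblast-like cells, with 2 to 6 list genes in gCap-like ECs, 0 to 15 in all ECs and 0 to 3 in fibroblast-like cells. The fold changes that changed sign ranged for Lpl from −0.41 to 0.31 in gCap-like, −0.36 to 0.98 in aCap-like, −0.38 to 0.093 in all and −0.058 to 0.32 in pooled capillary ECs and −0.040 to 0.43 in alveolar macrophage-like cells, for Angptl4 from −0.60 to 0.58 and Fabp4 from −1.30 to 0.13 in all ECs, for Cd36 from −0.11 to 0.016 in pooled capillary ECs, −0.0030 to 0.033 in the Cxcl12-led cluster and −0.00066 to 0.087 in non-classical monocyte-like cells, for Fabp5 from −0.033 to 0.51 in interstitial macrophages and monocytes, and for Gpihbp1 from −0.36 to 0.032 in vein-like ECs. Differences between classes (gCap-like minus aCap-like) ranged for Gpihbp1 from −0.21 to 1.24. Against alveolar macrophage-like cells, they ranged for Angptl4 from −0.40 to 2.09, Cd36 from −0.17 to 0.29 and Fabp4 from −0.63 to 3.60. For Fabp5 they ranged from −0.24 to 0.41 and for Lpl from −0.67 to 0.21. Each fit of this kind left only 1 library in a group. The counts called in such fits are given without the share over all genes and are a description only.

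The Cxcl12-led cluster alone and pooled, vein-like ECs, non-classical monocytes alone and the held mix of EC clusters were chosen after seeing the data. The limit of 10 cells a library was not met by AT2-like cells (9 and 8 in ERG CKO) and was lowered to 8 for them, and AT2-like cells without alignment were not run. At this depth, Fabp4, Pparg and Angptl4 could not be measured in capillaries.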

Other observations

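Genes whose level over 19 named classes was most like that of each lipid uptake gene are given as a description (Pearson's r of log2(CPM + 10) on class means, where the classes share libraries). Gpihbp1 was most like Acer2 (0.993), Tek (0.987) and Npr3 (0.985), of which Tek was used to name gCap-like cells. Cd36 was most like Jup (0.947), Cdc42bpb (0.941) and Qk (0.935). Lpl was most like Glul (0.914), Rxra (0.893) and Frmd4a (0.878), and Pparg was most like Lilra5 (0.933), Abhd12 (0.885) and Arhgap39 (0.881). Angptl4 was most like Mamdc2 (0.958), Dtna (0.916) and 1190002N15Rik (0.895). Fabp4 was most like Adam17 (0.858), Plagl2 (0.847) and Fam168a (0.829), and Fabp5 was most like Tc2n (0.802), Nucb2 (0.779) and Soat1 (0.757). Among the 7 genes themselves, Gpihbp1 with Cd36 (0.785), Fabp4 with Pparg (0.783) and Lpl with Cd36 (0.644) were the most alike.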
